A study of Homo sapiens with 22 samples.

Results

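Alpha-synuclein-overexpressing LUHMES cells were compared with wild-type LUHMES cells after both had received 6-hydroxydopamine (6-OHDA). The comparison took 8 of the 22 libraries in the series by their titles: the 4 of 6-OHDA-treated alpha-synuclein cells given no compound, and the 4 of 6-OHDA-treated control cells, whose genotype is labelled wild type. LUHMES is an immortalised human mesencephalic line that is differentiated into post-mitotic neurons with dopaminergic features, and the design text presents the treated cells as culture models of Parkinson disease. The 4 untreated wild-type and 4 untreated alpha-synuclein libraries gave the same genotype contrast without 6-OHDA. The 6 libraries in which 6-OHDA-treated alpha-synuclein cells also received quercetin or rutin entered no contrast. They did enter the filter on low counts, the scaling, the principal components, the GC curves described below and the estimate of spread. With all 22 libraries 16601 genes were tested, and with only the 8 compared libraries 13360. The dose and duration of 6-OHDA, the alpha-synuclein vector and its promoter, the number of clones, and whether control cells carried an empty vector are not stated in the labels or design text. No label ties replicates to separate cultures, so the p-values reflect only the spread between these libraries, which may be technical.

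Alpha-synuclein is an abundant presynaptic protein that aggregates in the Lewy bodies of Parkinson disease. 6-OHDA is a dopamine analogue that enters cells through monoamine transporters and oxidises readily, and it is widely used to injure dopaminergic neurons. Cells under such oxidative and proteotoxic load typically engage the NRF2 antioxidant response, the PERK and ATF4 arm and the IRE1 and ATF6 arms of the unfolded protein response, and p53 signalling.

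Levels are given in CPM, the count relative to a library size scaled by the trimmed mean of M values (TMM). Differences are log2 values of alpha-synuclein over wild type ± SE. The SE was derived by dividing the absolute log2 difference by the square root of the F statistic of the test below. Adjusted p-values come from the quasi-likelihood F test of edgeR, adjusted by Benjamini-Hochberg over all genes tested.

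Depth, sequencing lane and base composition bear on every value below. Treated wild-type libraries held 12.64, 3.12, 2.04 and 1.87 M estimated counts (M, mega) and treated alpha-synuclein libraries 5.41, 2.52, 3.93 and 18.61 M, and 3 counts, the detection floor used, equalled 0.17 to 1.49 CPM. Library names place treated wild-type cells on lane 1 with all untreated libraries, and treated alpha-synuclein cells on lane 2, so under 6-OHDA lane and genotype cannot be told apart, while the untreated contrast lies within lane 1. Alpha-synuclein replicate 4 stood apart from its group. Its score on the first principal component was -1.47, against 38.1 to 40.8 in the other 3 and 35.8 to 38.6 in treated wild-type cells, where untreated libraries scored -76.4 to -53.5. Counts over all genes are therefore given with and without it, and so are those of several lists.

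The 2 groups differed in how levels followed the GC content of the transcript. With each gene centred over these 8 libraries, the slope of log2 level on GC content, per 10 percentage points, was 0.161, 0.171, 0.133 and 0.109 in treated wild-type replicates 1 to 4, and -0.146, -0.144, -0.133 and -0.151 in treated alpha-synuclein replicates 1 to 4. The mean difference was -0.287, with every alpha-synuclein library below every wild-type library (2-sided exact permutation test, p = 0.0286, the smallest that 4 against 4 libraries allow). With each gene centred over all 22 libraries, the lane 2 libraries with quercetin or rutin had slopes from -0.140 to -0.021, and the untreated libraries on lane 1 ranged from -0.068 to 0.175, as the plot of GC slopes shows. Whether lane, genotype or another factor sets the slope cannot be told apart in these 8 libraries.

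**Figure D1:**
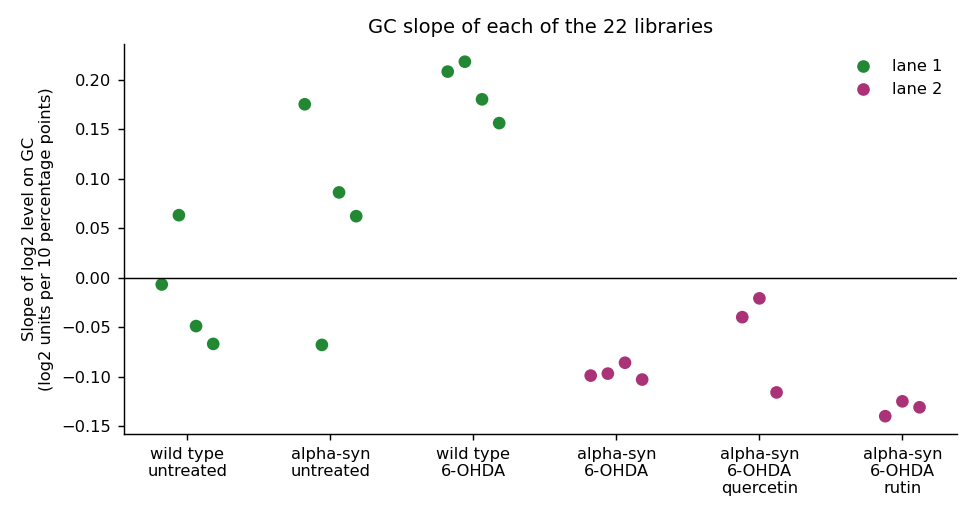
GC slope of each of the 22 libraries (points; log2 units per 10 percentage points of transcript GC, after centring each gene over the 22 libraries), by group and coloured by sequencing lane. All 10 lane 2 libraries lie below 0, and the 4 treated wild-type libraries lie at 0.156 to 0.218.

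The 4 genes below were picked with their values known, and their sequences show composition, not the size of this trend. The sequences below are 90 bases from the middle of the coding region of 4 genes that differed between the genotypes, taken from GENCODE 29 transcripts on GRCh38, 5′ to 3′, with G and C in capitals. ROCK1 and VPS13C were higher in alpha-synuclein cells, and NGFR and CEBPB were lower.
ROCK1: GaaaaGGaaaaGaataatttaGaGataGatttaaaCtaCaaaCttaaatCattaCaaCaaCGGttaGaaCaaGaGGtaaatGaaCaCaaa
VPS13C: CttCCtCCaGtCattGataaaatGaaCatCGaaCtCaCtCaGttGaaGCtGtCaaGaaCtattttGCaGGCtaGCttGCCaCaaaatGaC
NGFR: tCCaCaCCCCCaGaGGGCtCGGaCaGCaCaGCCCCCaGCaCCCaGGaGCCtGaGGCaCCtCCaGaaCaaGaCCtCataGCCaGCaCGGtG
CEBPB: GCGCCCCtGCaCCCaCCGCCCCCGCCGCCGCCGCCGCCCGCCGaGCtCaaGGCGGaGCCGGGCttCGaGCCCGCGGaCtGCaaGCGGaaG
G and C made up 26.7% of the ROCK1 stretch, 41.1% of the VPS13C stretch, 65.6% of the NGFR stretch and 81.1% of the CEBPB stretch. Over the whole transcript the shares were 40.5%, 37.1%, 62.8% and 66.2%. Other called genes went against the trend. KRT19 (61.8% of the transcript) and SLC7A5 (61.1%) were higher in alpha-synuclein cells, and EDEM1 (45.2%) and DNAJB9 (40.4%) were lower.

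Of 16601 genes tested, 4537 (27.3%) differed between treated alpha-synuclein and treated wild-type cells at an adjusted p under 0.05. They comprised 2395 higher (14.4%) and 2142 lower (12.9%) in alpha-synuclein cells, and 483 differed by 2-fold or more. The direction moved with composition: the median transcript GC was 40.79% among higher genes and 59.2% among lower genes, against 48.53% among all genes tested. Across 16573 genes with a GC value the log2 difference and GC content had a Pearson r of -0.429 (Spearman coefficient -0.551), which describes genes that share libraries and is not a test. In the GC decile of genes with the lowest content 680 were higher and 41 lower. In the decile with the highest GC content 5 were higher and 701 lower.

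A fit with a GC offset was therefore set beside the first fit. It subtracts, in each library, a smooth curve of level on GC content, and so removes a library's composition trend together with any real difference that follows GC content. With the offset r was -0.017, and 2023 genes (12.2%) were called, 1173 higher (7.07%) and 850 lower (5.12%). In the same deciles 218 were then higher and 106 lower, and 60 higher and 88 lower. Genes called in the same direction in both fits numbered 1646 (9.92%), with 982 higher (5.92%) and 664 lower (4.00%). Without alpha-synuclein replicate 4 the first fit called 4057 genes (24.7%), with 1887 higher (11.5%) and 2170 lower (13.2%). The GC-offset fit then called 1345 (8.19%), with 668 higher (4.07%) and 677 lower (4.12%). Genes called in the same direction in all 4 fits numbered 941 (5.67%), with 518 higher (3.12%) and 423 lower (2.55%).

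**Figure D2:**
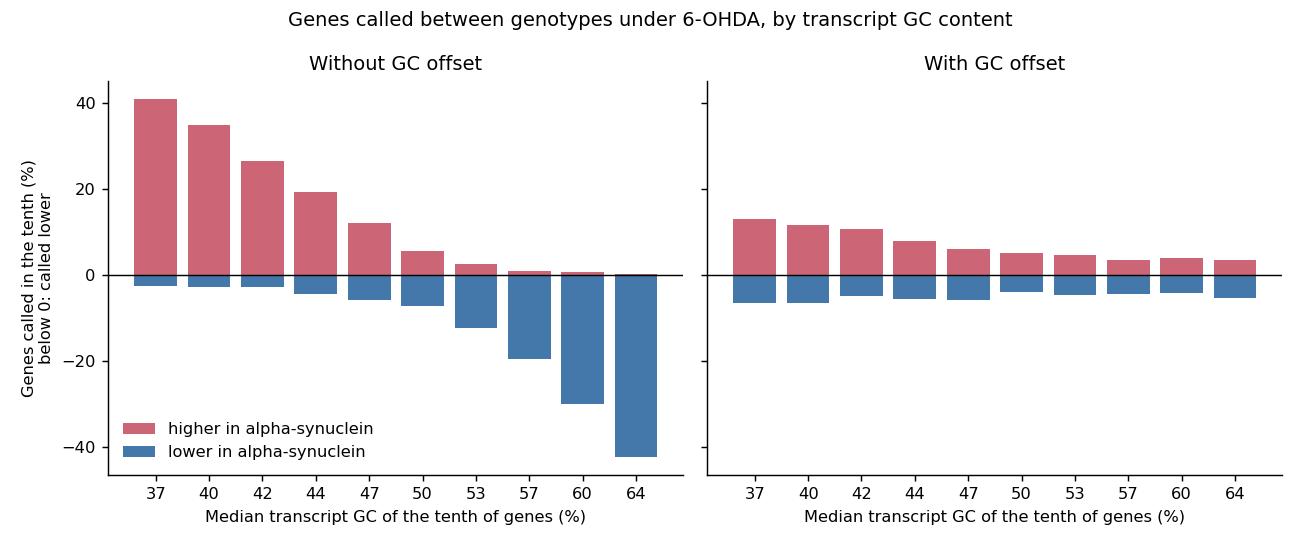
Share of genes called higher (above 0) and lower (below 0) in alpha-synuclein cells under 6-OHDA, for deciles of the tested genes ordered by transcript GC content (x axis, median GC of each decile), without and with the GC offset. Without the offset the lowest decile held 680 higher and 41 lower genes and the highest decile 5 and 701, and with it 218 and 106, and 60 and 88.

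Among protein-coding genes called in both fits, with at least 5 CPM in the higher group and no overlap between the groups (24.1% of all genes tested did not overlap), the 15 largest differences in each direction were examined. In several of the higher genes the treated wild-type mean lay below those of the other 3 groups. ROCK1 (minus strand of chromosome 18, 20946906 to 21111851), a kinase that drives actomyosin contraction, stood at 6.55, 6.05, 9.3 and 4.48 CPM in treated wild-type cells. In treated alpha-synuclein cells it stood at 56.5, 49.2, 53.6 and 85.5 CPM, and the untreated means were 57.5 CPM ± 12.8 (wild type) and 46.2 CPM ± 30.6 (alpha-synuclein) (SD, n = 4 each). The treated difference was 3.24 ± 0.41 (adjusted p = 2.73e-05), and 2.99 with the GC offset (adjusted p = 0.000142). RYR2 (plus strand of chromosome 1, 237042205 to 237833988), the ryanodine receptor that releases calcium from the endoplasmic reticulum (ER), was likewise lowest in treated wild-type cells. Its treated values were 6.55, 8.47, 2.33 and 11.4 CPM in wild-type cells against 38.1, 30.9, 20.9 and 37.1 CPM in alpha-synuclein cells, and its untreated means were 54.3 and 51.7 CPM. The RYR2 difference was 2.19 ± 0.27 (adjusted p = 2.16e-05).

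FBXO45, which encodes a substrate adaptor of a neuronal ubiquitin ligase, was represented by 0, 10, 2 and 0 counts in the treated wild-type libraries. Its level was 17.9 to 31.8 CPM in treated alpha-synuclein cells and had a mean of 24.7 CPM in untreated wild-type cells. The small GTPase gene RHOBTB1 was at 2, 0, 0 and 0 counts in treated wild-type cells and at 1.16 to 20.8 CPM in treated alpha-synuclein cells. NAA30, a catalytic subunit of N-terminal acetylation, was at 3.33 to 12.4 CPM against 26.2 to 39.7 CPM (2.28 ± 0.41). Also among the 15 were CLGN (3.77), a testis-type ER chaperone, SCG3 (2.97), a granin of secretory granules, CDC7 (2.34), a replication kinase, and PDXP (1.78), a pyridoxal phosphate phosphatase. FAM83A (2.22) was at 266 to 291 CPM in treated alpha-synuclein replicates 1, 2 and 4 and at 1032 CPM in replicate 3. The readthrough gene MSANTD3-TMEFF1 (4.70) shares exons with its neighbours, so its estimate is uncertain. The calls of CDC7 and PDXP held in all 4 fits, while SCG3 had an adjusted p of 0.0783 with the GC offset and without replicate 4. An estimate at 0 in a few libraries can also come from how reads were divided among similar transcripts, which was not tested.

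The lower genes mostly stood at modest levels. NGFR (plus strand of chromosome 17, 49495293 to 49515017), the p75 neurotrophin receptor that can signal cell death, stood at 29.3, 34.5, 33 and 26.9 CPM in treated wild-type cells. It stood at 7.15, 1.08, 2.58 and 1.65 CPM in treated alpha-synuclein cells, where the untreated means were 9.35 CPM ± 2.89 and 6.51 CPM ± 2.28 (SD, n = 4 each). The groups did not overlap, and the difference was -3.30 ± 0.37 (adjusted p = 1.03e-05; -2.91 with the GC offset and -2.52 also without replicate 4). GOLPH3, a Golgi phosphoprotein, was at 41.8 to 50.5 CPM against 6.7 to 12.9 CPM, a difference of -2.17 ± 0.31 (adjusted p = 8.13e-05). CCNI, cyclin I, was at 113 to 182 CPM against 20.3 to 47 CPM (-2.06 ± 0.47). FAM174A was at 14.8 to 19.9 CPM against 2.15 to 4.49 CPM (-2.18 ± 0.33).

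FAM117B was represented by 82, 33, 22 and 14 counts in treated wild-type cells, and by 0, 0, 0 and 5 counts in treated alpha-synuclein cells. GTF3C4, a subunit of an RNA polymerase III initiation factor, was at 127, 32, 17 and 17 counts against 4, 0, 0 and 3, and had an adjusted p of 0.054 with the GC offset and without replicate 4. CDKN1B, the cyclin-dependent kinase inhibitor p27, was at 6.48 to 10.3 CPM against 0.665 to 3.95 CPM, and its adjusted p was 0.0951 with the GC offset and without replicate 4. Without 6-OHDA it was listed at 0 in all 4 wild-type libraries. Junctophilin gene JPH4 (-2.16), spermine synthase SMS (-2.16), NUFIP2 (-2.14), KLHL32 (-2.14), FAM220A (-2.26) and AC138811.2 (-3.90) were also among the 15, of which JPH4 and NUFIP2 had adjusted p-values of 0.0708 and 0.108 with the offset and without replicate 4. The histone gene HIST1H3D (-2.24) and the readthrough gene TMEM189-UBE2V1 (-2.21) belong to families of near-identical or overlapping transcripts, so their estimates are uncertain.

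**Figure D3:**
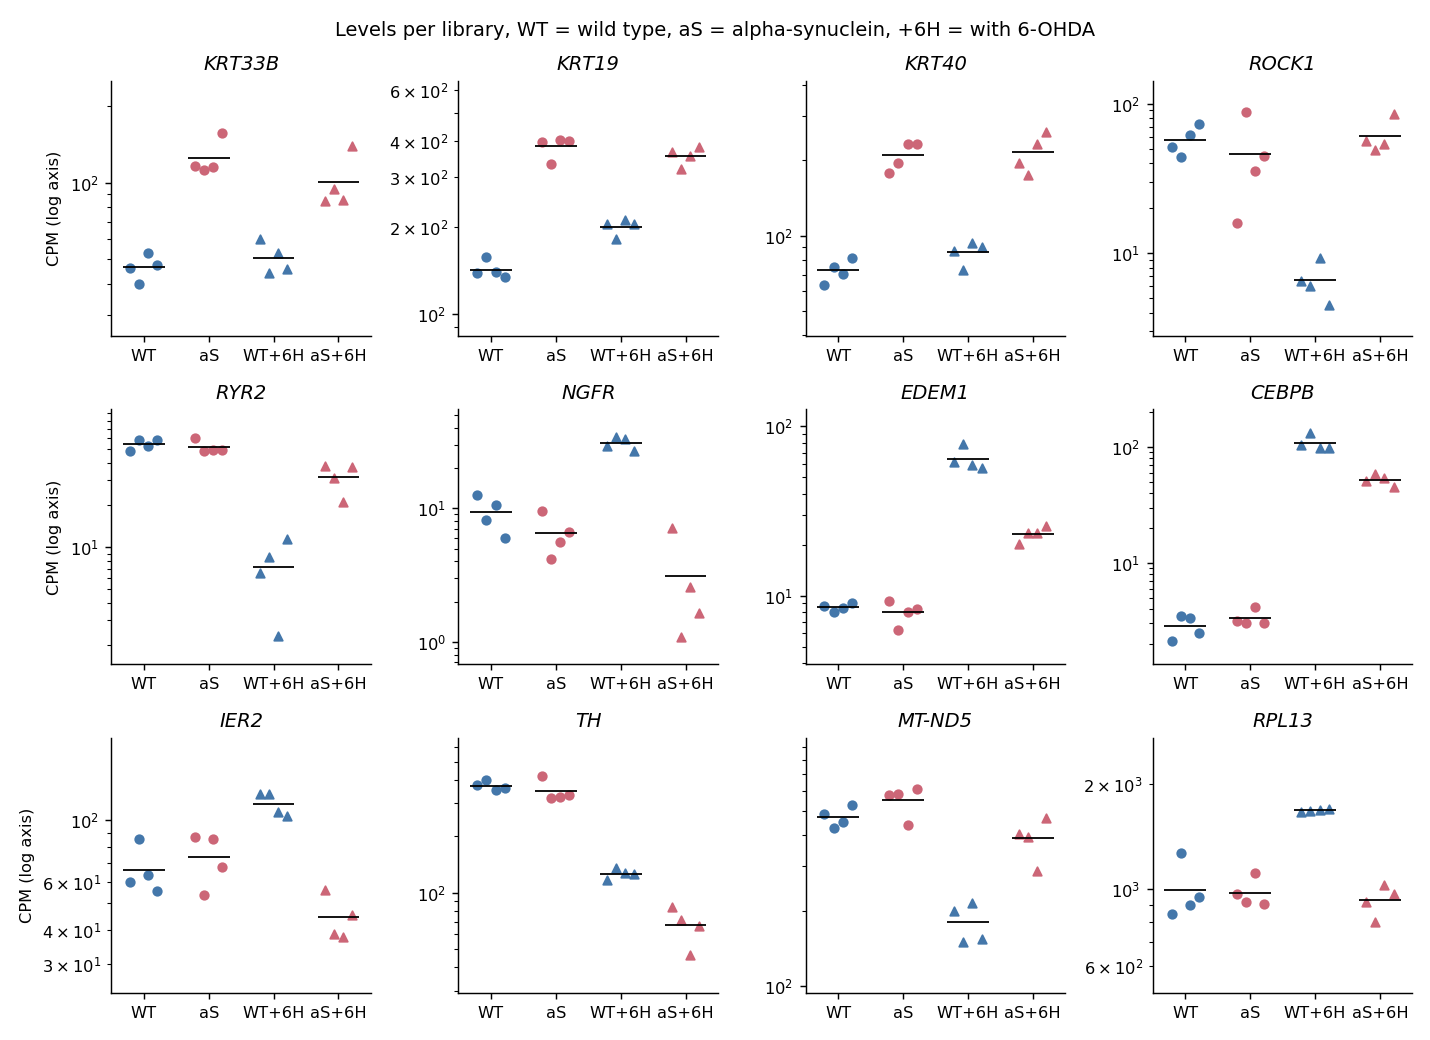
Level of 12 genes in each library (points, CPM, log axes) of wild-type (blue) and alpha-synuclein (red) cells without 6-OHDA (circles) and with it (triangles), and group means (bars). The 12 were chosen with their values known, and the treated groups overlap for none of them, as for 24.1% of all genes tested. KRT33B, KRT19 and KRT40 differ between genotypes with and without 6-OHDA.

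ER stress genes EDEM1, DNAJB9 and ERN1 were lower in alpha-synuclein cells. Of 20 tested members of the ER chaperone and unfolded protein response list, 2 were higher and 4 lower (median -0.183), against 14.4% and 12.9% of all genes and an overall median of -0.01. Without replicate 4 the counts were 1 and 9, against 11.5% and 13.2% of all genes. With the GC offset 1 was higher and 6 lower, and without replicate 4 in addition 0 and 5. The list member HSPA5 was absent from the deposited counts. EDEM1, which directs misfolded glycoproteins to degradation, stood at 61.2, 78.6, 59.5 and 56.7 CPM in treated wild-type cells. In treated alpha-synuclein cells it stood at 20.1, 23.3, 23.3 and 25.7 CPM, with untreated means of 8.54 and 7.96 CPM. The difference of EDEM1 was -1.47 ± 0.13 (adjusted p = 1.71e-06), and -1.57 with the GC offset. DNAJB9, an ER co-chaperone, was at 42.5 to 48.2 CPM against 9.2 to 25.8 CPM (-1.40 ± 0.33). ERN1, which encodes the stress sensor IRE1, was at 33.3 to 40 CPM against 10.2 to 28.2 CPM (-0.88 ± 0.21). The disulfide isomerase PDIA3 was higher (0.58 ± 0.14, adjusted p = 0.0387 with the GC offset), with the highest value in replicate 4, and its adjusted p was 0.14 with the offset and without that replicate.

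The ER stress response element, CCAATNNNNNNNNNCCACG, is a DNA motif through which ATF6 activates chaperone genes. It was searched on both strands of the 250 bases before the RefSeq start of 35116 promoters (GRCh38.p14), and 0.0740% of them held it. Among the 19 list members with a promoter sequence 5 held it, and EDEM1, DNAJB9 and ERN1 were not among them. The list was made of known genes of this response, so setting these shares side by side is no test of enrichment. One stretch from each of those 5 follows (HSP90B1 held another), on the strand of the gene, with the CCAAT and CCACG parts (or their reverse complements) in capitals.
CANX, chr5:179698766-179698808, plus strand: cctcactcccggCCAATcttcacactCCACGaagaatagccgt
HSP90B1, chr12:103930309-103930351, plus strand: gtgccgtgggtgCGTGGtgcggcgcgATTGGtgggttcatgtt
CALR, chr19:12938372-12938414, plus strand: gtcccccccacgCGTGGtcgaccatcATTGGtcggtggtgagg
XBP1, chr22:28800591-28800633, minus strand: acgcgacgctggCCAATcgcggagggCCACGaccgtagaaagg
CRELD2, chr22:49918542-49918584, plus strand: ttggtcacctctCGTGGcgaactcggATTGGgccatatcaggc
These 5 genes did not pass the test in the first fit, with log2 differences of -0.36 for CANX, 0.03 for HSP90B1, 0.11 for CALR, -0.17 for XBP1 and -0.14 for CRELD2. With the GC offset XBP1, the transcription factor spliced by IRE1, and the lectin chaperone CANX passed as lower (-0.40 and -0.59). A match shows letters in a window, not a bound factor, and these genes were looked at after their values were known.

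Genes of the integrated stress response moved in both directions. Of 22 tested members of the ATF4 list 3 were higher and 8 lower, where 14.4% and 12.9% of all genes were. With the GC offset the counts were 2 and 4, against 7.07% and 5.12% of all genes, and also without replicate 4 they were 1 and 3, against 4.07% and 4.12%. These shares are the background of each list count. For the first fit without replicate 4 they are 11.5% higher and 13.2% lower. DDIT3, the pro-apoptotic factor CHOP, was at 129, 133, 132 and 138 CPM in treated wild-type cells and at 105, 110, 113 and 109 CPM in treated alpha-synuclein cells. That difference was small and free of overlap (-0.28 ± 0.07, adjusted p = 0.004; 0.0166 with the GC offset). DDIT4, an inhibitor of mTORC1, was lower in the first fit (-0.66 ± 0.13), but its adjusted p was 0.0734 with the GC offset. SLC7A5, the large neutral amino acid transporter, went the other way, at 29 to 58.2 CPM against 61.8 to 121 CPM (1.01 ± 0.23, adjusted p = 0.00233; 0.00149 with the GC offset). The cystine transporter SLC7A11 was higher too, at 142 to 168 CPM against 228 to 417 CPM (0.88 ± 0.19), and its adjusted p was 0.0479 with the GC offset and 0.234 also without replicate 4.

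CEBPB (plus strand of chromosome 20, 50190734 to 50192689), a bZIP transcription factor of inflammatory and stress responses, was lower in alpha-synuclein cells. It stood at 105, 132, 98.1 and 98.5 CPM in treated wild-type and 50.5, 58.5, 54.5 and 45 CPM in treated alpha-synuclein cells, without overlap. Both groups lay far above the untreated means of 2.86 CPM ± 0.659 and 3.33 CPM ± 0.536 (SD, n = 4 each). The difference was -1.07 ± 0.13 (adjusted p = 2.16e-05) and -0.59 ± 0.12 with the GC offset (adjusted p = 0.00278; 0.0116 also without replicate 4). The design text names CEBPB beside quercetin and, beside rutin, a symbol written AKR13C. Whether that means AKR1C3, an aldo-keto reductase, is unsure. AKR1C3 was at 0.527 to 1.4 CPM against 0.831 to 1.88 CPM. At these levels near the detection floor a difference was not detectable (0.61 ± 0.54, adjusted p = 0.445).

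Immediate-early genes, which are transcribed within minutes of a stimulus, were lower where they passed. Of 14 tested 0 were higher and 5 lower (median -0.774), and 0 and 5 with the GC offset (median -0.434), 0 and 4 also without replicate 4. EGR1 and JUNB of this list were absent from the deposited counts. IER2 was at 125, 125, 107 and 104 CPM against 55.8, 38.8, 37.8 and 45.3 CPM, a difference of -1.37 ± 0.16 (adjusted p = 1.63e-05). JUND, an AP-1 subunit, was at 943 to 1150 CPM against 482 to 596.5 CPM (-0.97 ± 0.10, and -0.39 with the GC offset). JUN (-0.59 ± 0.10) and MYC (-0.78 ± 0.18) also passed in both fits. FOS, FOSB and ARC, named after their values were seen, and NR4A1 did not pass, with differences of -0.60, -0.62, -0.77 and -0.54. The phosphatase and Sprouty list, feedback inhibitors of MAP kinase signalling, had 0 higher and 2 lower of 12, with SPRED2 at 8.95 to 23.3 CPM against 2.82 to 7.81 CPM (-1.50 ± 0.40). DUSP1 of that list was absent from the deposited counts.

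Of 20 p53 targets tested, 3 were higher and 7 lower, and with the GC offset 2 and 5. Without replicate 4 the counts were 3 and 4, and 0 and 3 with the offset. BTG2, an antiproliferative gene, was at 108, 109, 93 and 80.1 CPM against 56.7, 53.8, 56.2 and 47.2 CPM (-0.88 ± 0.14, adjusted p = 0.000128; 0.000689 with the GC offset). BBC3, the pro-apoptotic BCL2 family member PUMA, had means of 203 CPM and 104 CPM (-0.98 ± 0.13, and -0.40 with the GC offset, adjusted p = 0.0241). TP53INP1 was higher (0.70 ± 0.13), with an adjusted p of 0.0574 with the GC offset and without replicate 4. The anti-apoptotic MCL1 was lower as well, at 88 to 131 CPM against 51.5 to 73.2 CPM (-0.84 ± 0.22, and -0.96 with the GC offset). In the BCL2 family 1 of 13 was higher and 4 were lower, and 0 and 3 with the offset. BAD was lower in the first fit only (-0.74 ± 0.11, and -0.25 with the offset, adjusted p = 0.12).

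NRF2 targets showed small differences in both directions. Of 18 tested 2 were higher and 5 lower, and with the GC offset 2 and 2. Thioredoxin reductase TXNRD1 was at 539 to 616 CPM against 724 to 815 CPM (0.39 ± 0.07, adjusted p = 0.000465; 0.00997 with the offset and 0.00673 also without replicate 4). Transketolase TKT was at 802 to 870 CPM against 592 to 674 CPM (-0.43 ± 0.08) and sulfiredoxin SRXN1 at 171 to 187 CPM against 113.8 to 155 CPM (-0.45 ± 0.10). TKT and SRXN1 passed with the offset but not also without replicate 4 (adjusted p = 0.0823 and 0.128). Of 19 iron and ferroptosis genes 4 were higher and 4 lower. ACSL4, which activates polyunsaturated fatty acids, was at 43.9 to 50.7 CPM against 69.6 to 113 CPM (0.83 ± 0.14, and 0.50 with the offset). GPX4, which reduces lipid peroxides, was lower in the first fit (-0.59 ± 0.10) and had an adjusted p of 0.162 with the offset.

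All 13 mRNAs of the mitochondrial genome were higher in treated alpha-synuclein cells, with a median of 1.12. These messages encode core subunits of the respiratory chain and ATP synthase. With the GC offset 10 passed and 0 were lower (median 0.999), without replicate 4 11 and 0, and with both changes 8 and 0. MT-ND5, a complex I subunit, was at 199, 150, 215 and 154 CPM in wild-type cells and at 405, 394, 289 and 469 CPM where alpha-synuclein was overexpressed. The difference was 1.12 ± 0.16 (adjusted p = 7.59e-05). Untreated means were 472 CPM ± 44.1 and 554 CPM ± 78.8 (SD, n = 4 each), above both treated groups. MT-ND3 (1.71 ± 0.27) and MT-ND1 (1.26 ± 0.22) passed in all 4 fits, and so did MT-ND4L (2.24 ± 0.30), which overlaps MT-ND4 and cannot be fully separated from it. MT-CO1 differed by 0.36 (adjusted p = 0.121 with the offset), and its groups overlapped. The mitochondrial share of all counts was 0.544% to 0.784% in treated wild-type and 0.818% to 1.094% in treated alpha-synuclein libraries.

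The nuclear-encoded respiratory chain differed less, with 7 of 35 tested higher and 3 lower (median 0.152), and 5 and 1 with the GC offset. The background was 14.4% higher and 12.9% lower among all genes, and 7.07% and 5.12% with the offset. Without replicate 4 the counts were 6 higher and 7 lower, against 11.5% and 13.2% of all genes. With the offset as well they were 5 and 4, against 4.07% and 4.12%. ATP5F1B, the catalytic subunit of ATP synthase, was at 8.77 to 14.4 CPM against 22.6 to 29.4 CPM (1.09 ± 0.15, and 1.17 with the offset). ATP5PB was higher (0.65 ± 0.12) and so was COX7C (0.81 ± 0.15), while cytochrome c1, CYC1, was lower (-0.95 ± 0.16, and -0.50 with the offset). Each of these 4 passed in all 4 fits.

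Cytosolic ribosomal protein genes were lower in treated alpha-synuclein cells. Of 30 tested 1 was higher and 19 were lower (median -0.409), against 12.9% lower among all genes. With the GC offset 1 and 11 passed (median -0.262), and 0 and 13 also without replicate 4. RPL13 was at 1661, 1680.2, 1685 and 1702 CPM in wild-type cells and at 916, 801, 1025.5 and 969 CPM in alpha-synuclein cells, where the untreated means were 991 and 973 CPM. The difference of RPL13 was -0.86 ± 0.10 (adjusted p = 2.08e-05; -0.64 with the offset). RPL3 (-0.89 ± 0.13), RPL18 (-0.81 ± 0.12) and RPS19 (-0.70 ± 0.10) also passed in all 4 fits. These genes have many processed pseudogenes, among which reads may have been divided.

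**Figure D4:**
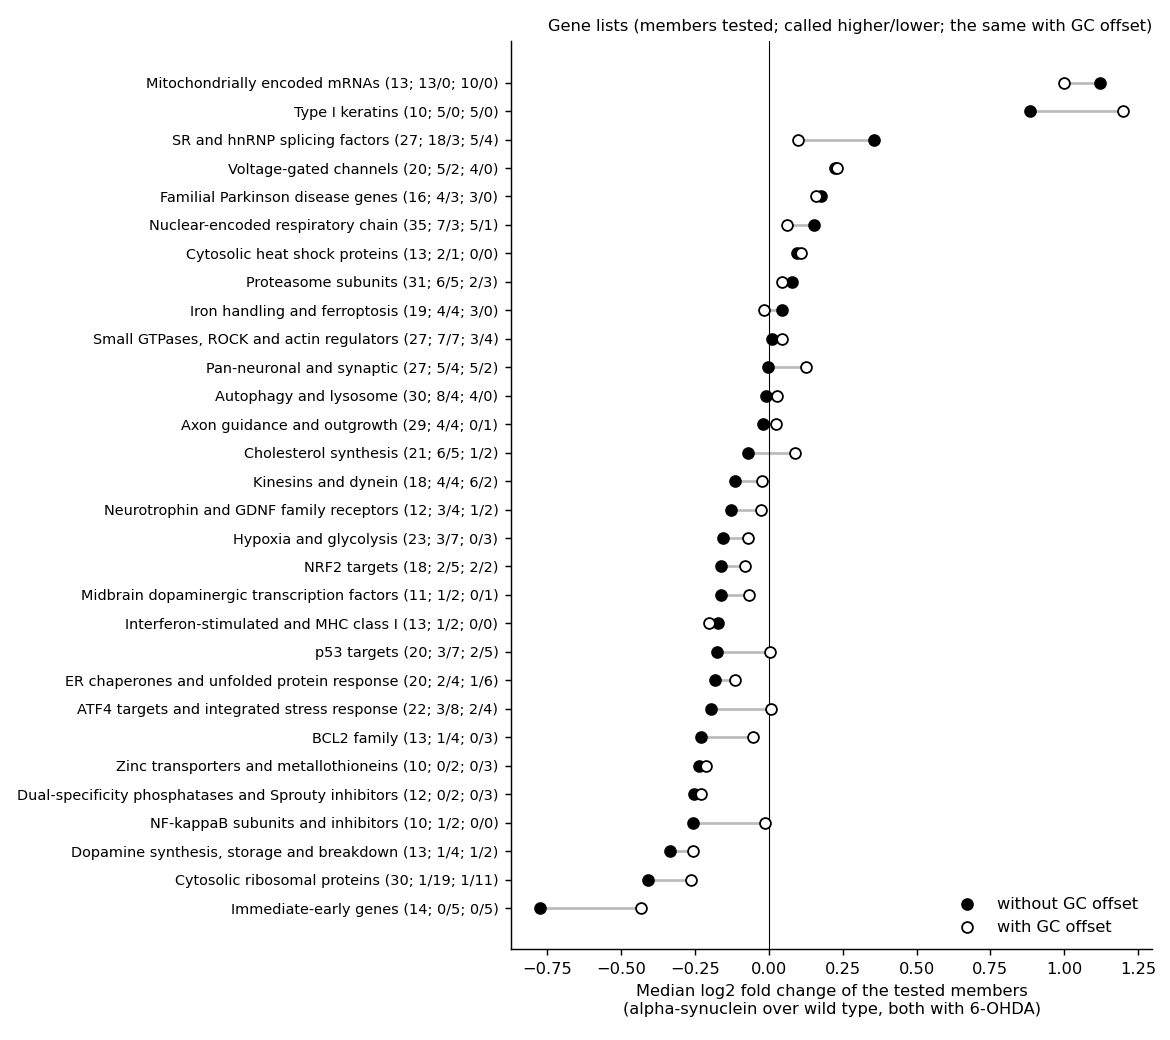
Median log2 difference of the tested members of each gene list (alpha-synuclein over wild type, both with 6-OHDA), without (filled) and with (open) the GC offset, for lists with at least 10 tested members. Labels give members tested, called higher/lower, and the same with the offset. Mitochondrially encoded mRNAs (1.12) and type I keratins (0.884) lie highest and immediate-early genes (-0.774) lowest.

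Type I keratins, epithelial intermediate filament proteins, included members higher in alpha-synuclein cells with and without 6-OHDA. Of 10 tested 5 were higher and 0 lower in both fits (median 0.884, and 1.2 with the GC offset), and 4 and 0 without replicate 4 in either fit. KRT19 stood at 205, 183, 212 and 205 CPM in treated wild-type and 365, 319, 355 and 380 CPM in treated alpha-synuclein cells. Its difference was 0.82 ± 0.08 (adjusted p = 1.82e-06), 1.19 with the offset, and 1.43 without 6-OHDA (adjusted p = 7.74e-11). KRT40 was at 73.2 to 93.9 CPM against 175 to 259 CPM (1.33 ± 0.13), and the difference was 1.52 without 6-OHDA. KRT33B (0.99 ± 0.17) and KRT39 (1.93 ± 0.28, at 1.21 to 1.99 CPM against 4.93 to 5.74 CPM) also passed in both contrasts.

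These keratins lie close together on chromosome 17, with other tested genes between some of them. Their position was examined after their values had been seen. The 10 tested type I keratins span 40818117 to 41624842 (GRCh38), 806726 bases that hold 12 tested genes. Of these 12, 7 were higher and 0 lower under 6-OHDA, and 5 were higher in both genotype contrasts with and without the GC offset: KRT39, KRT40, KRT33B, KRT19 and KRTAP2-3, which encodes a keratin-associated protein. KRTAP2-3 was at means of 0.637 and 2.23 CPM without 6-OHDA, and 2.81 and 5.42 CPM with it. Among 25 tested genes in the 500000 bases on either side, 2 were higher and 5 lower under 6-OHDA. Without 6-OHDA the smallest adjusted p among those 25 was 0.0522, for HAP1. KRT10 and KRT12 at the left end of the span did not pass in either contrast. Nor did KRT34 and KRT15, which lie between KRT33B and KRT19, or KRT17 at the right end. Near-identical keratin sequences share reads in the estimates, and the cause of this local pattern was not tested.

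**Figure D5:**
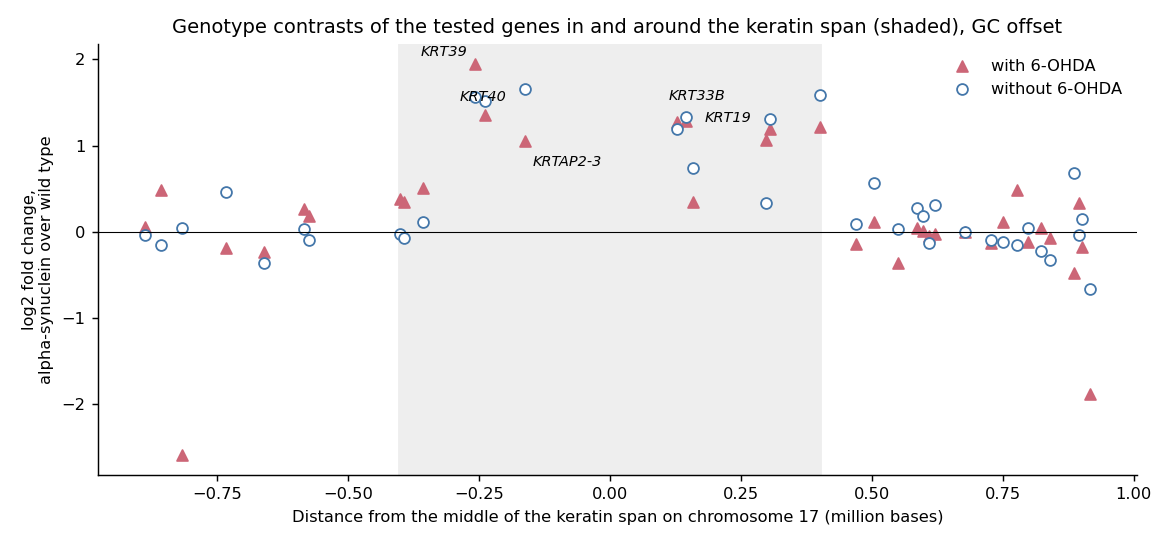
Log2 difference between alpha-synuclein and wild-type cells, with the GC offset, for the 37 tested genes in the keratin span (shaded) and 500000 bases on each side, by distance from the middle of the span (megabases), with 6-OHDA (triangles) and without it (circles). KRT39, KRT40, KRTAP2-3, KRT33B and KRT19 lie above 1 in both contrasts.

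Among dopaminergic genes TH was lower and PTS higher. TH (minus strand of chromosome 11, 2163929 to 2171877), the rate-limiting enzyme of dopamine synthesis, stood at 116.4, 135, 127 and 127 CPM in treated wild-type and 83.9, 71.8, 46.8 and 66.6 CPM in treated alpha-synuclein cells. The difference was -0.90 ± 0.15 (adjusted p = 0.000209), -0.42 with the GC offset (adjusted p = 0.049), and it no longer passed also without replicate 4 (adjusted p = 0.117). In bulk RNA fewer TH-positive cells and less TH mRNA per cell cannot be told apart. In the dopamine synthesis, storage and breakdown list 1 of 13 was higher and 4 were lower, and 1 and 2 with the offset. PTS, an enzyme of tetrahydrobiopterin synthesis, was at 4.19 to 8.44 CPM against 10.8 to 13.6 CPM (0.89 ± 0.23, and adjusted p = 0.0523 with the offset). CYB561, the vesicular cytochrome that regenerates ascorbate, was lower in the first fit (-0.68 ± 0.15; adjusted p = 0.0642 with the offset). NR4A2, the factor Nurr1 of midbrain dopaminergic identity, was at 23.3 to 26.5 CPM against 12.6 to 21.5 CPM (-0.61 ± 0.16, adjusted p = 0.0141 with the offset and 0.0634 also without replicate 4).

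Receptors for neuronal growth factors differed in both directions, with 3 of 12 higher and 4 lower, and 1 and 2 with the GC offset. Besides NGFR, the GDNF signalling receptor RET was lower, at 31.3 to 44.8 CPM against 14.4 to 28.1 CPM (-0.90 ± 0.22). GFRA1, the GDNF-binding co-receptor of RET, was higher, at 487 to 538 CPM against 582 to 984.5 CPM (0.44 ± 0.12). RET and GFRA1 passed with the offset but not also without replicate 4 (adjusted p = 0.0868 and 0.118).

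Markers of cell types were read beside these results. Summed dopaminergic markers were 153 to 169 CPM in treated wild-type and 79.9 to 107 CPM in treated alpha-synuclein libraries, with 0 of 7 tested higher and 2 lower, and ALDH1A1 at 0 in all 8. TH made up most of these sums (means 126.3 and 67.3 CPM). SLC18A2 (0.723 and 1.66 CPM) and KCNJ6 (0.286 and 0.891 CPM) had higher means in alpha-synuclein cells. SLC6A3 (6.55 and 6.33 CPM), DDC (0.629 and 0.42 CPM) and LMX1B (2.65 and 2.25 CPM) had lower means, and none of these passed. Summed general neuronal markers overlapped, at 3976 to 4327 and 3892 to 4953 CPM, with 2 of 9 higher and 1 lower. Dividing progenitor markers summed to 307 to 354 and 171 to 244 CPM. VIM, the 1 of 7 called lower, made up most of these sums (means 280.5 and 160.3 CPM). MKI67 (4.60 and 8.46 CPM) and CDK1 (2.39 and 4.07 CPM) had higher means in alpha-synuclein cells. MKI67 stood at 0, 0.718, 12.2 and 20.9 CPM in treated alpha-synuclein replicates 1 to 4. TOP2A (1.27 and 0.233 CPM), CCNB1 (13.7 and 11.2 CPM), PAX6 (20.7 and 17.2 CPM) and HES1 (1.6 and 1.05 CPM) had lower means. Apart from VIM none of these progenitor markers passed. Astrocyte markers were 48.7 to 65.6 and 57.3 to 66 CPM, and microglial markers 8.77 to 14 and 6.7 to 13.3 CPM. Oligodendrocyte markers were 51.7 to 86.5 and 43.7 to 66.3 CPM and fibroblast markers 26 to 28.3 and 19.7 to 24.9 CPM. Whether a shift in cell types contributes to the differences was not tested.

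Neuronal genes did not share a direction. Of 27 pan-neuronal and synaptic genes 5 were higher and 4 lower, and 5 and 2 with the GC offset, 1 and 1 also without replicate 4. ELAVL3, a neuronal RNA-binding protein, was at 531 to 585 CPM against 339 to 377 CPM (-0.67 ± 0.08, adjusted p = 2.04e-05; -0.40 with the offset and passing in all 4 fits). The neurofilament genes NEFM (-0.38 ± 0.07) and NEFH (-0.47 ± 0.09) were lower, and had adjusted p-values of 0.0418 and 0.094 with the offset. MAP2, a dendritic microtubule protein, was at 464 to 488 CPM against 560 to 752 CPM (0.46 ± 0.10, adjusted p = 0.051 with the offset), with untreated means of 1869 and 1539 CPM. Of 20 voltage-gated channels 5 were higher and 2 lower, and 4 and 0 with the offset. The sodium channel SCN3A was at 142 to 162 CPM against 234 to 383 CPM (0.88 ± 0.13, and 0.60 with the offset) and passed in all 4 fits, and the potassium channel KCNH7 was higher (0.48 ± 0.11). Of 18 kinesin and dynein genes 4 were higher and 4 lower, and 6 and 2 with the offset, with KIF3A at 76 to 89 CPM against 119 to 169 CPM (0.73 ± 0.12), and KIF21A higher (0.42 ± 0.07). KIF21B was lower in the first fit (-0.83 ± 0.19; adjusted p = 0.0766 with the offset), and lower without 6-OHDA (-1.08, adjusted p = 0.00149).

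Among autophagy receptors, NBR1 and TAX1BP1 were higher. Of 30 autophagy and lysosome genes 8 were higher and 4 lower, and 4 and 0 with the GC offset. NBR1, a cargo receptor of aggregate autophagy, was at 48.8 to 59.7 CPM against 83.4 to 120 CPM (0.85 ± 0.13, adjusted p = 9.64e-05; 0.000614 with the offset). TAX1BP1, another cargo receptor, was at 112 to 126 CPM against 162 to 204 CPM (0.59 ± 0.08), and both passed in all 4 fits. SQSTM1, the receptor p62, was lower in the first fit (-0.45 ± 0.10) and had an adjusted p of 0.272 with the offset. The lysosomal membrane protein LAMP2 was higher in the first fit (0.51 ± 0.10; adjusted p = 0.0785 with the offset). Of 16 familial Parkinson disease genes 4 were higher and 3 lower, and 3 and 0 with the offset. VPS13C, a lipid transfer protein at mitochondria and lysosomes, was at 127 to 151 CPM against 215 to 321 CPM (0.89 ± 0.13, and 0.56 with the offset). GIGYF2, a translational repressor, was at 136 to 147 CPM against 166 to 214 CPM (0.42 ± 0.07) and passed in all 4 fits, as VPS13C did. The retromer subunit VPS35 was higher (0.48 ± 0.10, adjusted p = 0.196 with the offset and without replicate 4), and the lysosomal ATPase ATP13A2 was lower in the first fit (-0.64 ± 0.14; adjusted p = 0.341 with the offset).

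Other genes of the list of small GTPases, ROCK kinases and actin regulators moved in both directions. Of 27 tested 7 were higher and 7 lower, and 3 and 4 with the GC offset. RHOB, a stress-responsive small GTPase, was at 842 to 934.5 CPM against 457 to 686 CPM (-0.60 ± 0.10), profilin PFN1 at 309 to 333 CPM against 166.5 to 250.5 CPM (-0.68 ± 0.11), and cofilin CFL2 at 40.8 to 44.5 CPM against 61.7 to 86.9 CPM (0.71 ± 0.13). All 3 passed with the offset. Of 23 hypoxia and glycolysis genes 3 were higher and 7 lower, and 0 and 3 with the offset, with PFKFB3, an activator of glycolysis, at -0.65 ± 0.08 and GAPDH at -0.61 ± 0.09. In cholesterol synthesis 6 of 21 were higher and 5 lower, and 1 and 2 with the offset, with the epoxidase SQLE at 1.99 to 4.29 CPM against 7.72 to 9.14 CPM (1.45 ± 0.27). Of 31 proteasome subunits 6 were higher and 5 lower, and 2 and 3 with the offset (2 and 0 also without replicate 4), which are near the shares of all genes, 14.4% and 12.9%, and 7.07% and 5.12%. Among them were PSMA2 (0.79 ± 0.13) and PSMD8 (-0.49 ± 0.09).

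Splicing factor calls fell in number with the GC offset. Of 27 SR and hnRNP genes 18 were higher and 3 lower (median 0.355), and with the offset 5 and 4 (median 0.1), or 2 and 3 also without replicate 4. Their median transcript GC was 39.91%. SRSF11 was at 183 to 209 CPM against 272 to 370 CPM (0.69 ± 0.10, and 0.35 with the offset) and passed in all 4 fits. HNRNPD was higher in the first fit (0.59 ± 0.09) and had an adjusted p of 0.106 with the offset, while HNRNPH1 (0.55 ± 0.08) and HNRNPA2B1 (0.55 ± 0.09) passed in both.

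The same genotype contrast without 6-OHDA, on 8 other libraries of lane 1, called 108 genes (0.651%), 62 higher and 46 lower. Of the 982 genes higher under 6-OHDA in both fits 12 were called higher without it, where 0.373% of all genes were. Their median differences were 0.66 with and -0.07 without 6-OHDA. Of the 664 lower genes 3 were called lower without 6-OHDA, where 0.277% of all genes were, with medians of -0.78 and 0.08. Both sets were chosen for the treated difference, so the larger treated medians follow from that choice. The difference between the contrasts, tested as an interaction, passed for 3594 genes (21.6%), and for 907 (5.46%) with the GC offset, 485 above 0 (2.92%) and 422 below 0 (2.54%). The interaction uses the same treated libraries, so lane cannot be told apart from it either. Of the 108 genes called without 6-OHDA 24 were called in the same direction under 6-OHDA and 18 in the opposite direction, where 27.3% of all genes were called. In both fits of both contrasts 15 were called alike, among them the 5 genes of the keratin span.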

How the data were processed

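Per the labels' protocols, LUHMES RNA came from an InnuPREP isolation, and libraries from the MGIEasy RNA set. The authors deposited 1 table of estimated counts per gene for 22 libraries. The submitters' processing notes name Trimmomatic 0.38, kallisto 0.46.2 and GRCh38. The annotation release, the summing of transcripts to genes and the use of strand were not given in the sources used. The table was tested with edgeR 4.0.16 (R 4.3.3): TMM scaling, low genes removed with a count minimum of 10, quasi-likelihood fits over 6 group means and all 22 libraries, and an adjusted p under 0.05. The GC offset used a smoothing spline with 6 degrees of freedom per library, on the GC content of the longest GENCODE 29 transcript. Rows set aside held 0.174% of counts. Precision follows depth, with 1.87 to 18.61 M (mega) counts per compared library. Scripts were tested on simulated data. Alternatives were DESeq2 1.42.0, limma 3.58.1, other filters, offsets and left-out libraries. Named genes were CEBPB, AKR1C3 and TH, the 15 largest differences each way, and the 4 smallest adjusted p-values of each list. FOS, FOSB, ARC, MT-CO1, the 5 genes with the ER stress element, KRT10, KRT12, KRT15, KRT17, KRT34, HAP1 and KRTAP2-3 were added after their values were seen. Some genes that this rule names are not reported here. Members and lists were chosen with earlier results of these data known.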

Additional observations from a re-analysis of the deposited data

Results flagged for a closer look

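The genotype difference itself differed between treated and untreated cells for 50 of the genes examined and not for 52, by edgeR's quasi-likelihood interaction test with Benjamini-Hochberg adjustment, with and without the GC offset. Nearly all of them were chosen for the treated difference, which the interaction contains, so this count is no result, and 5.46% of all genes passed with the offset. Each value is the log2 genotype difference with 6-OHDA minus that without it. It was above 0 for RHOBTB1 (7.04), FBXO45 (5.69), CLGN (3.87), ROCK1 (3.55), NAA30 (2.68), MT-ND4L (1.97), FAM83A (3.03), RYR2 (2.26), PDXP (1.78), MSANTD3-TMEFF1 (5.05), MT-ND5 (0.89), ATP5F1B (1.07), MAP2 (0.74), SCN3A (0.99), KIF3A (0.91), KIF21A (0.57), TAX1BP1 (0.62), NBR1 (0.92), VPS13C (1.00), GIGYF2 (0.45), CFL2 (0.87), SQLE (1.84) and ACSL4 (1.18). It was below 0 for FAM117B (-5.21), GTF3C4 (-9.35), AC138811.2 (-5.17), NGFR (-2.76), CDKN1B (-9.54), TMEM189-UBE2V1 (-3.08), FAM174A (-2.13), GOLPH3 (-2.65), SMS (-2.52), NUFIP2 (-3.79), CCNI (-3.37), EDEM1 (-1.35), DNAJB9 (-2.22), ERN1 (-1.46), DDIT3 (-0.52), JUND (-1.23), IER2 (-1.52), BTG2 (-1.42), MCL1 (-1.12), RPL13 (-0.83), RPL3 (-1.30), CYB561 (-1.10), NR4A2 (-0.79), ELAVL3 (-0.89), NEFH (-0.76), PFKFB3 (-0.81) and SPRED2 (-1.96). Values of GTF3C4, CDKN1B, RHOBTB1 and FAM117B rest on libraries with counts of 0 and are no measure of size. FBXO45, MSANTD3-TMEFF1, CLGN, AC138811.2, NUFIP2 and PDXP also had a count of 0 in at least 1 treated library, so the size of their values is uncertain. Lane cannot be told apart from the treated genotype contrast in any of the genes listed.

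Single libraries stood far from the rest of their group in 14 of 204 sets of 4 libraries tested by Dixon's criterion, which chance alone meets in about 1 in 20. For RHOBTB1 and FAM117B the distant library held 2 and 5 counts and the other 3 held 0, which meets the criterion by construction. Alpha-synuclein replicate 4 was the distant library in 7 of them, at 0.284 CPM for FAM117B, 1206.5 CPM for PDIA3, 139.7 CPM for KRT33B, 984.5 CPM for GFRA1, 382.9 CPM for SCN3A, 168.9 CPM for KIF3A and 321.4 CPM for VPS13C. Alpha-synuclein replicate 3 was distant at 1032.3 CPM for FAM83A and 2570.3 CPM for GAPDH. Among treated wild-type libraries, replicate 1 was distant for RHOBTB1 (0.151 CPM), VPS35 (182.8 CPM) and SQLE (4.29 CPM), and replicate 2 for SRXN1 (186.9 CPM) and ACSL4 (43.9 CPM).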

How the results depend on the processing

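The alternatives were read for genes named in the text that were, except AKR1C3, chosen among called genes, and none reversed a direction. The replicate block with the GC offset ended 50 of those calls, the GC offset without alpha-synuclein replicate 4 33, the offset alone 12, thinning to the shallowest library 9 and limma voom 7. The 4537 calls under 6-OHDA (2395 higher, 2142 lower) became 2023 (1173 and 850) with the GC offset and 2040 (1170 and 870) with a GC and length offset. Without a filter on low counts 2575 were higher and 1423 lower. Leaving out 1 library gave 3732 to 4367 calls, 1887 to 2706 higher and 1442 to 2170 lower. With the GC offset, an alternative added after seeing the data, it gave 1345 calls without alpha-synuclein replicate 4 to 2826 without alpha-synuclein replicate 1, with 668 to 2087 higher and 553 to 739 lower. Without 6-OHDA the 108 calls became 230 with DESeq2, 709 with limma voom, 66 after thinning, and 106 to 197 with 1 library left out (97 to 184 with the GC offset), highest without treated alpha-synuclein replicate 4. The 3594 interaction calls became 907 with the GC offset and 876 with GC and length, 3196 to 3679 with 1 library left out, and 792 to 1655 with the offset as well. The GC slope difference ranged from -0.298 to -0.278 with 1 library left out (exact permutation p = 0.0571, the smallest possible). Fits of only the 8 libraries give no untreated or interaction value. The cause of these changes was not tested.

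Replicate numbers are shared between the groups, but same-numbered libraries did not deviate together over all tested genes (r = 0.019, -0.025, 0.010 and -0.014). These values show no large shared deviation. They cannot tell whether the numbers mark paired cultures, which the labels do not state. Fits of only the 8 libraries called 3625 genes without a block. With the replicate number as a block they called 3064 (1670 higher, 1394 lower), and with the block and the GC offset 520 (240 higher, 280 lower).

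Depth limits low genes most: 3 counts equal up to 1.49 CPM in the shallowest library.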
